A study of Mus musculus with 12 samples.

Results

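Among the splicing clusters of newly made RNA in mouse embryonic stem cells, 838 of 7263 tested clusters offered a choice between alternative splice sites that lie 31 to 150 nt apart. A splicing cluster is a set of introns linked by shared splice sites. A member held exactly 2 introns, shared its start or its end between them, and had intron lengths that differed by 31 to 150 nt. The form with the longer intron was taken as the reference splicing form. In total 3448 tested clusters held 2 introns with a shared site, so that the members made up the middle of a range that runs from tandem sites to sites over 10000 nt apart. The members carried 743 different name entries, with 66 entries on 2 members each and 8 on 3 or more, and 11 members had no gene name.

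The cells were female hybrid mouse embryonic stem cells (129S x Cast) in which METTL3, the catalytic subunit of the m6A methyltransferase, carried FKBP12(F36V) at its C terminus, and which also held a doxycycline-inducible *Xist*. The 6 Ctrl samples were untreated (0 h) and the 6 dTAG samples had 3 h of dTAG-13, which sends the tagged protein to degradation, before 30 min of labelling with 4-thiouridine and isolation of the labelled RNA. Each group held 3 replicates of clone C3 and 3 of clone H5, which are clones of the same hybrid line, and the cells grew on inactivated mouse fibroblast feeders. The deposited tables hold 1 pooled percent spliced in (PSI, a fraction from 0 to 1) per intron and group, without values per sample or read counts. Depth is thus unknown, and replicate error cannot be given for a PSI. The authors' own tests over the replicates were not used, so no difference below is set against the spread between replicates, and none was tested here. Of 32 pluripotency genes 22 had a tested cluster, against 3 of 20 feeder fibroblast markers and 3 of 20 differentiation markers. dTAG-13 removes the METTL3 protein and not its RNA, so these tables do not check the sample labels.

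An intron begins at a 5′ splice site (5′SS), recognised by U1 small nuclear RNA, and ends at a 3′ splice site (3′SS), where a pyrimidine-rich tract and a terminal AG are bound by U2AF. When alternative sites of 1 kind lie close together, both introns remove the same core, and the stretch between the sites is exon in one form and intron in the other. Use of the upstream 5′SS, or of the downstream 3′SS, gives the longer intron and leaves the stretch out. A stretch whose length is a multiple of 3 adds or removes whole codons, other lengths change the reading frame, and a stop codon in the stretch can send a transcript to nonsense-mediated decay. m6A is deposited on adenosines in the DRACH consensus, of which GGACT (in DNA letters) is the most common form, and readers of the mark such as YTHDC1 have been linked to splicing.

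The following stretches are shown because their use differed by 0.1 or more between the conditions and they lie outside long untranslated parts. Each is written 5′ to 3′ on the strand of the intron with both alternative sites, and the capitals mark the first 2 intron bases at each 5′SS. The *Brip1* line also has the m6A motif GGACT in capitals. Coordinates are on mm10, and the line of *Hmga1* lies on the plus strand (chr17:27559668-27559709), *Asap1* on the minus strand (chr15:64158876-64158920), *Kif2a* on the minus strand (chr13:106987947-106988012), *Cecr2* on the plus strand (chr6:120756851-120756943), *Brip1* on the minus strand (chr11:86201068-86201111) and *Ift46* on the plus strand (chr9:44786413-44786526).
Hmga1: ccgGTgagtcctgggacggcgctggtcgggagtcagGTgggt
Asap1: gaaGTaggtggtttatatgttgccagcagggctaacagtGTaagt
Kif2a: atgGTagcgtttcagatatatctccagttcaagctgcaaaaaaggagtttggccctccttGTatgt
Cecr2: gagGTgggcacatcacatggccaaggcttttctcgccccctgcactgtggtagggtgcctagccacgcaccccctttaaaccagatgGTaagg
Brip1: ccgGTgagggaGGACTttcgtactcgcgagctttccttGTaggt
Ift46: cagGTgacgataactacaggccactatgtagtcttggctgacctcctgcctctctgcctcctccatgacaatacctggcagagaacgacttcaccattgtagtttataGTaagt

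For alternative 3′SS the capitals mark the last 2 intron bases at each site, so the first AG ends the shorter intron and the second the longer one. These lines lie on the minus strand for *Mon2* (chr10:123002836-123002923), *Mphosph9* (chr5:124320952-124321018) and *Thoc2* (chrX:41812492-41812595), and on the plus strand for *Otud7b* (chr3:96141468-96141624).
Mon2: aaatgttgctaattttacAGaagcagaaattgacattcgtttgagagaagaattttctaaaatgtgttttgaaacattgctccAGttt
Mphosph9: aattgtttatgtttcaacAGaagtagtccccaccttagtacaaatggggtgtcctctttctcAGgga
Thoc2: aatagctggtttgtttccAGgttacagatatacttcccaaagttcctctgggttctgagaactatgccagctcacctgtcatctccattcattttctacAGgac
Otud7b: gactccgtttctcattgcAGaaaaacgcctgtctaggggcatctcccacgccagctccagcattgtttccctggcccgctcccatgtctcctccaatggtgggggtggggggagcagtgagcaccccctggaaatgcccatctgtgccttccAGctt

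Alternative 3′SS made up 488 members and alternative 5′SS 350, or 41.8%. Short distances were the most frequent, since 380 members had sites 31 to 60 nt apart, 233 members 61 to 90 nt, 135 members 91 to 120 nt and 90 members 121 to 150 nt, with a median of 65 nt. The share of alternative 5′SS was 36.1% in the shortest of these ranges and 56.7% in the longest. Among the neighbouring distance classes it was 32.2% at 1 to 30 nt and 74.2% at over 150 and up to 1000 nt. All members had GT-AG or GC-AG ends, and 15 members had a GC-AG intron.

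The distance was a multiple of 3 in 315 members (37.6%), against 269 with a remainder of 1 and 254 with a remainder of 2. The share was 40.9% for 5′SS and 35.2% for 3′SS. At 1 to 30 nt, where tandem sites weigh in, it was 59.2%, and at over 150 and up to 1000 nt it was 38.7%. Multiples of 3 were more frequent where the annotation (GENCODE vM21) lists both introns, with 43.5% of 398 members, or only the longer one, with 40.7% of 113 members, than where it lists only the shorter one, with 27.3% of 315 members. Of the 138 members with a PSI of the longer intron from 0.25 to 0.75 in untreated cells, 53.6% had a distance that is a multiple of 3. A coding frame could not be read in 45 of these 138, and 50 were in frame without a stop.

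**Figure D1:**
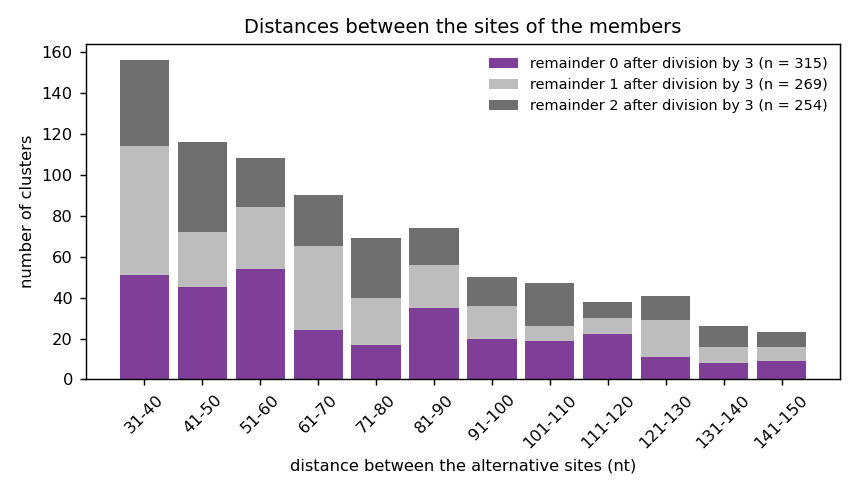
Number of members (y axis) by the distance between their alternative splice sites in nt (x axis, 10-nt ranges), with colours for the remainder of the distance after division by 3. The shortest range holds the most members, and 315 of 838 distances are multiples of 3.

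The longer intron was the less used form in most members. In untreated cells its PSI had a median of 0.190 (quartiles 0.0623 and 0.844), and it was above 0.5 in 306 members (36.5%). Alternative 5′SS were the more balanced kind, with a median of 0.376 and 45.1% above 0.5, against a median of 0.141 and 30.3% for alternative 3′SS. In the neighbouring classes the longer intron was above 0.5 in 36.9% of clusters at 1 to 30 nt and in 68.3% at over 150 and up to 1000 nt. The minor form stayed below a PSI of 0.05 in 297 members (35.4%).

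Use differed with the annotation of the stretch, which in part restates which of the introns is annotated. The longer intron had a median PSI of 0.966 in the 113 members in which only it is annotated. This median was 0.0562 in the 315 members with only the shorter intron annotated, and 0.404 in the 398 with both. Where the stretch lay wholly in an exon and overlapped coding sequence of a coding transcript with the shorter intron (540 members), the longer intron had a median PSI of 0.0906. In 38 members the stretch was exon of a transcript annotated as a target of nonsense-mediated decay and of no coding transcript with that intron, and there the longer intron was above 0.5 in 38 of 38 (median 0.907). Where no transcript with the shorter intron was annotated (125 members), the median was 0.961. The 62 stretches in 5′ untranslated regions were used most evenly, with a median of 0.443 and quartiles of 0.191 and 0.829, and 77.4% of them came from alternative 5′SS. The remaining members were 48 in other noncoding transcripts, 20 with another exon structure and 5 in 3′ untranslated regions.

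**Figure D2:**
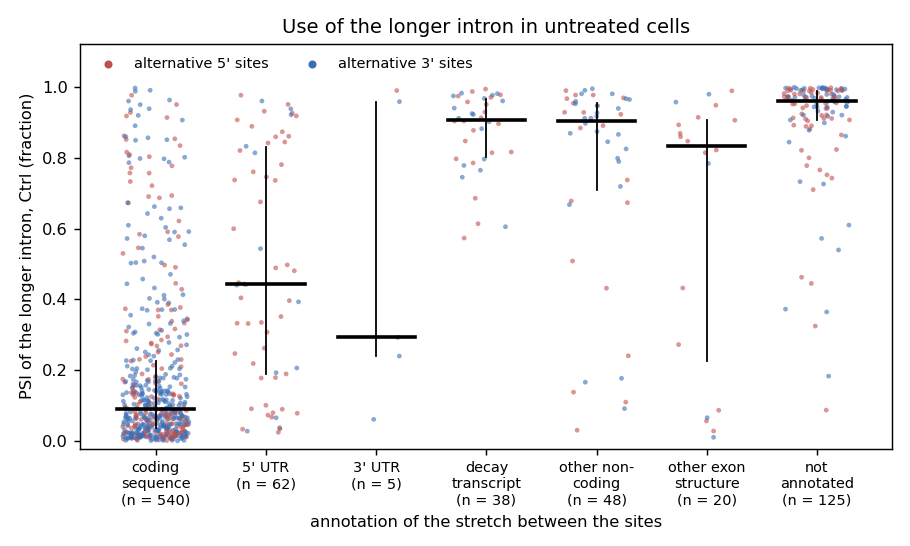
PSI of the longer intron in untreated cells (y axis, fraction) for each member, by the annotation of the stretch between the sites (x axis), red for alternative 5′ and blue for alternative 3′ sites; thick lines are medians and thin lines span the quartiles over clusters. Members with a coding stretch lie mostly near 0 (median 0.0906), and those whose stretch belongs to a decay transcript all lie above 0.5.

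A coding frame that was the same in all coding transcripts with either intron could be read across the sites in 695 members. The stretch shifted the frame without a stop in 351 of them, shifted it and held a stop in 85, kept the frame without a stop in 214, and kept the frame with a stop in 45. Members with a stop in the stretch mostly left the stretch out, since the longer intron was above 0.5 in 126 of 130 of them (96.9%), against 116 of 565 without a stop (20.5%). A stretch annotated as coding throughout cannot hold a stop in its own frame, so this split partly follows from the annotation. Among the 103 members with a readable frame in which only the longer intron is annotated, 60 stretches held a stop (58.3%). With only the shorter intron annotated it was 1 of 289, and with both 69 of 303. Stops beyond the stretch were not looked for, so the members without a stop in it include frameshifts that may meet one later.

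Splice site strength accompanied the choice. Each site was scored by the log2 frequency of its bases over all sites of the table, from 3 exon and 6 intron bases at the 5′SS and from 20 intron and 3 exon bases at the 3′SS. The site with the higher score was used more in 528 of 838 members (63.0%), and this share was 53.5% where the scores differed by less than 2, 64.5% from 2 to 5, and 81.1% from 5 upwards. At alternative 3′SS the median score was 8.42 for the main site and 6.73 for the minor one, and at alternative 5′SS it was 7.24 and 6.46. Across members, which are not replicates, the score difference and the PSI of the longer intron in untreated cells had a Spearman correlation of 0.275 for 5′SS and 0.332 for 3′SS. The members themselves are part of the base frequencies.

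**Figure D3:**
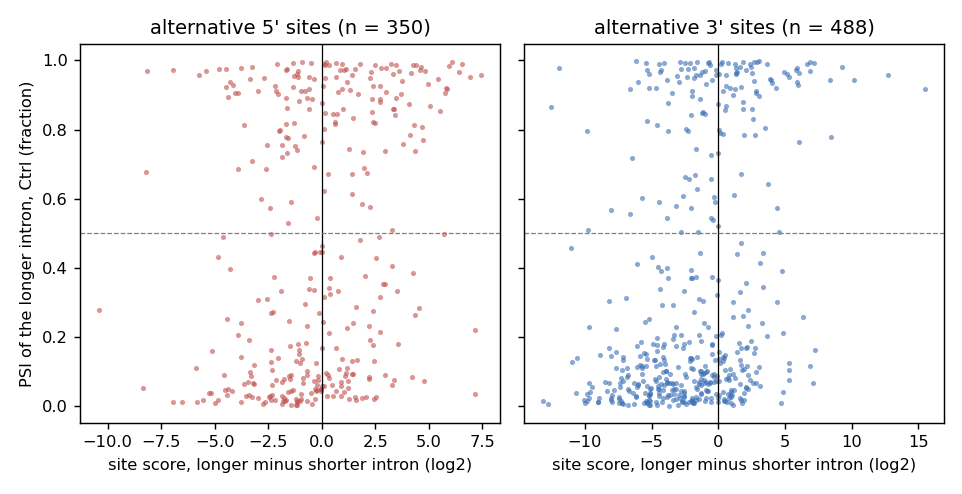
PSI of the longer intron in untreated cells (y axis, fraction) against the score of its alternative site minus that of the shorter intron (x axis, log2 units), with 1 point per member, for 350 alternative 5′ sites (left) and 488 alternative 3′ sites (right). Points scatter widely in both panels, and in all the site with the higher score was used more in 63.0% of members.

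Most members differed little between the conditions, in part because many had a form that was hardly used. The difference (dTAG minus Ctrl PSI of the longer intron) had a median of -0.00253, a 5th percentile of -0.0681 and a 95th percentile of 0.0489, and 515 members (61.5%) differed by less than 0.02, against 58.6% of all 3448 clusters of 2 introns with a shared site. The median absolute difference was 0.0140 over all members and 0.0225 over the 579 whose minor form reached a PSI of 0.05. The PSI values of both conditions had a Pearson correlation of 0.994 across members and of 0.992 across all those clusters. The difference reached 0.1 in either direction in 20 members, or 2.39%. This share stood beside 3.77% of all 3448 clusters of 2 introns with a shared site, 4.63% of all 7263 tested clusters by their largest intron difference, 1.83% at 1 to 30 nt and 6.07% at over 150 and up to 1000 nt. Differences of this size were therefore no more frequent among the members than in the tables as a whole. The longer intron was higher by at least 0.1 in 9 members (1.07%) and lower in 11 (1.31%), against 2% and 1.77% of all clusters of 2 introns with a shared site. At 0.05 the count was 110 members (13.1%, against 15.1%), at 0.2 it was 5 (0.597%, against 1.07%), and a log odds change of 1 natural log unit was reached by 13 (1.55%, against 2.76%). By site type there were 10 members past 0.1 among 5′SS (5 in each direction) and 10 among 3′SS (4 higher and 6 lower). These counts include 6 clusters in repeats (1 higher and 5 lower), of both site types, whose site positions are not fixed and which are described below.

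**Figure D4:**
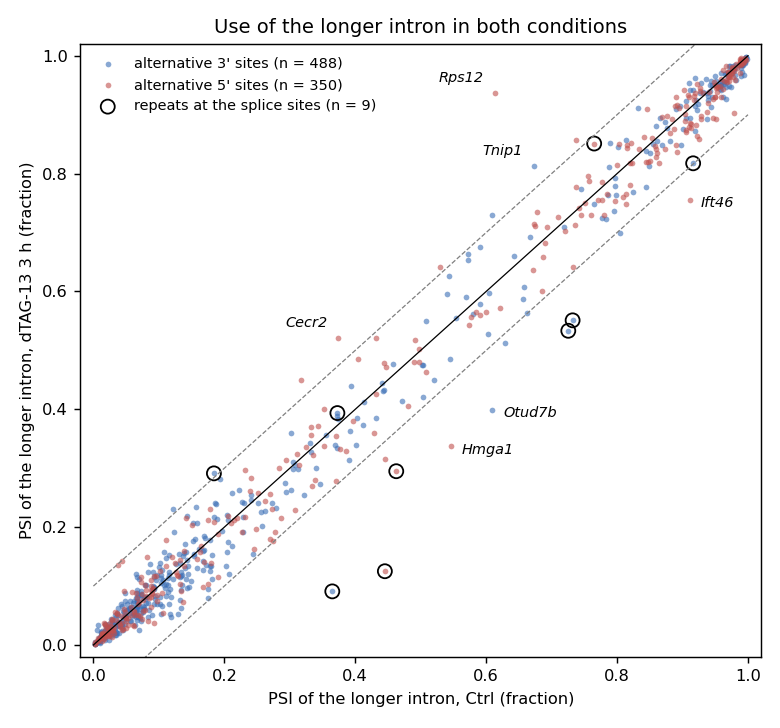
PSI of the longer intron after dTAG-13 (y axis, fraction) against that in untreated cells (x axis, fraction), 1 point per member; the solid line marks equal use, the dashed lines a difference of 0.1, and circles the 9 members with repeats at their splice sites. Points lie along the line of equal use, with *Rps12* the farthest above it at 0.614 and 0.937.

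The most changed named gene was *Rps12*, which encodes a protein of the small ribosomal subunit. Its longer intron (chromosome 10, 23786005 to 23786763, minus strand) had a PSI of 0.614 in untreated cells and of 0.937 after dTAG-13, a difference of 0.324, so that the share of the downstream 5′SS was 0.386 before and 0.0626 after. The 139-nt stretch shifts the frame and holds a stop, and the annotation has it in a transcript marked for nonsense-mediated decay. Another annotated transcript reaches the same shorter intron through a separate 15-nt exon within the stretch, and split reads over the shorter intron do not tell the 2 apart. The upstream 5′SS of *Rps12*, caaGTacgt, had a higher score (6.80) than the downstream one, aagGTatca (5.38).

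The other members with more use of the longer intron had smaller differences. *Cecr2*, a bromodomain protein of chromatin remodelling complexes, had an 84-nt coding stretch in frame, and the PSI of its longer intron (chromosome 6, 120756854 to 120757565) was 0.374 in Ctrl and 0.521 in dTAG. *Tnip1*, an inhibitor of NF-kB signalling, had 3′SS 74 nt apart with a stop in the stretch, and its longer intron went from 0.673 to 0.813. *Vps11*, a core subunit of complexes that tether endosomes and lysosomes, had 5′SS 67 nt apart and values of 0.317 and 0.449. Its downstream 5′SS, gagGCaagg, was a GC site, and the upstream one was cttGTacgt. In these 4 genes the form that leaves the stretch out had the higher PSI after dTAG-13 than before.

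*Brip1*, a DNA helicase that binds BRCA1, was the only member past 0.1 with GGACT between the sites. Its 35-nt stretch was annotated in a noncoding transcript, and the longer intron had a PSI of 0.737 in Ctrl and 0.857 in dTAG. *Kif2a*, a kinesin that depolymerises microtubules, had an in-frame coding stretch of 57 nt and values of 0.530 and 0.641. *Mon2*, which acts in trafficking between Golgi and endosomes, had only its shorter intron annotated, and its longer intron went from 0.122 to 0.231. An unnamed cluster on chromosome 2 (163087722 to 163089538, minus strand), which overlaps *Gtsf1l*, had 3′SS 126 nt apart and values of 0.610 and 0.729.

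Among the members with less use of the longer intron, the largest difference of a named gene was that of *Otud7b*, a deubiquitinase. Its longer intron (chromosome 3, 96140606 to 96141621) is not annotated, and its PSI was 0.609 in Ctrl and 0.399 in dTAG, a difference of -0.210. An annotated transcript with the shorter intron has a 31-nt exon that lies within the 134-nt stretch. *Hmga1*, an architectural chromatin protein with AT hooks, had 5′SS 33 nt apart, and its longer intron (chromosome 17, 27559671 to 27560927) went from 0.546 to 0.337, a difference of -0.209. The stretch is coding and in frame, and it is the piece by which the known isoforms HMGA1a and HMGA1b differ. In both genes the longer intron was the main form in untreated cells and the minor one after dTAG-13.

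*Ift46*, a subunit of the intraflagellar transport machinery of cilia, had an unannotated downstream 5′SS 105 nt away, with a stop in the in-frame stretch, and its longer intron had a PSI of 0.912 in Ctrl and 0.755 in dTAG. *Asap1*, a GTPase-activating protein for Arf, had an in-frame stretch of 36 nt and values of 0.446 and 0.315. *Mphosph9*, a centriole protein, had 3′SS 44 nt apart and values of 0.629 and 0.513. *Thoc2*, a subunit of the THO complex that couples transcription to mRNA export, had 3′SS 81 nt apart in frame and values of 0.805 and 0.699. In *Ift46*, *Asap1* and *Mphosph9* the site used more after dTAG-13 than before had the higher score, and in *Thoc2* it had the lower one (8.94 against 12.4). Across all 838 members, the score difference and the PSI difference had a Spearman correlation of only -0.0297.

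**Figure D5:**
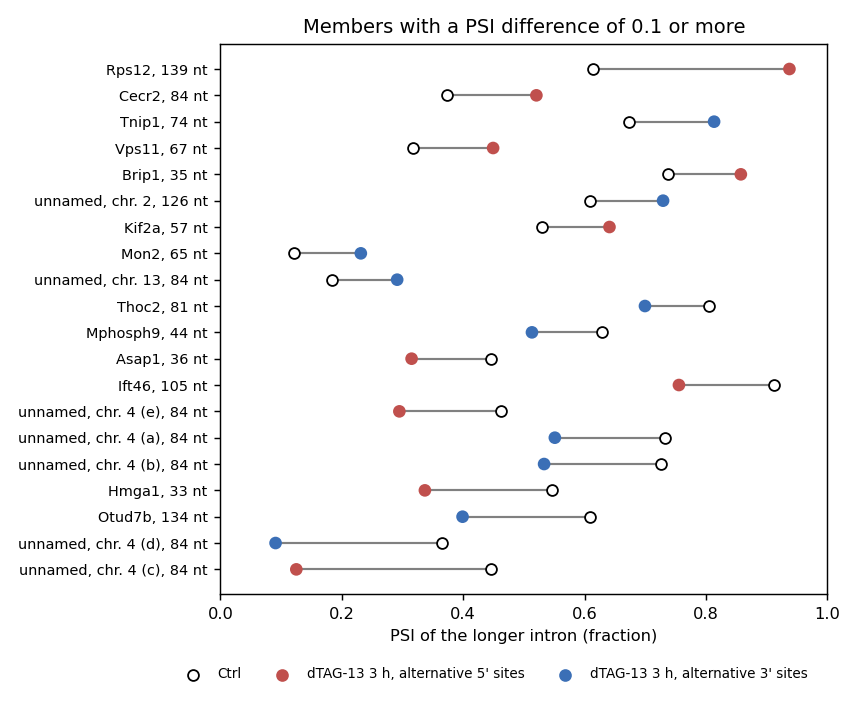
PSI of the longer intron (x axis, fraction) in untreated cells (open circles) and after dTAG-13 (filled circles, red for alternative 5′ sites and blue for alternative 3′ sites) for the 20 members with a difference of 0.1 or more (y axis, with the distance between sites; letters a to e number the chromosome 4 clusters by position). *Rps12* shows the longest line to the right (0.614 to 0.937), and unnamed clusters on chromosome 4 the longest to the left (0.445 to 0.125).

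The largest negative differences came from clusters that lie in repeats. For each intron the number of bases was counted by which it can shift along the genome with the same spliced sequence. In 829 members this was at most 9 bases (median of the larger value 3), and in 9 members it was 19 to 66 bases. Of these 9, 7 had sites 84 nt apart, no gene name and no annotated intron, and 6 of the 7 had a difference of 0.1 or more. Over all distances, 130 of 3448 clusters of 2 introns with a shared site reached 0.1, and 115 of the 3422 without such repeats. Clusters in such repeats thus reached 0.1 outside the members too. Of the 829 members with shifts of at most 9 bases, 14 reached 0.1 (1.69%, against 3.36% of all clusters of 2 introns with a shared site and no such repeat), 8 of them with the longer intron higher and 6 lower. Repeats of this kind were found in 55 of all 7263 tested clusters, in 1 of 1418 clusters at 1 to 30 nt and in 8 of 527 at over 150 and up to 1000 nt.

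The 7 clusters have the layout of zinc finger arrays. The stretch of 84 nt equals 28 codons and was 82.1% to 96.4% identical to the window of the same length beside it, against a median of 31.3% in the 829 other members. On the strand opposite to the splice motif, 7 of 7 held 3 to 5 zinc finger patterns (the spacing of cysteines and histidines that binds zinc), and on the strand of the motif none did. Several overlap annotated genes on that opposite strand, such as *Zfp987*, *Zfp981* and *Zfp988* on chromosome 4. The clusters at *Zfp981* and *Zfp988* also overlap noncoding genes on the strand of the motif. The chromosome 4 cluster that starts at 146719316 overlaps only such a gene, the noncoding *Gm26573*. A stretch (chr4:146124799-146124882, minus strand) and its neighbouring copy (chr4:146124883-146124966) are shown to make the repeat visible, with capitals at the 3 positions that differ.
stretch: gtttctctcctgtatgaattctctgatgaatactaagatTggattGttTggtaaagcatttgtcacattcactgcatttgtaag
copy: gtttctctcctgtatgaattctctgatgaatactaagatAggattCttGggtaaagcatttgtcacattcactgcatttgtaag

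In 5 of these clusters the longer intron had a lower PSI by 0.1 or more, and all 5 lie on chromosome 4. The cluster at 146719316 to 146719483 had a PSI of 0.445 in Ctrl and 0.125 in dTAG, and that at 147332750 to 147332917 had 0.365 and 0.0910. The one that overlaps *Zfp981* (146537584 to 146537835) went from 0.725 to 0.533, the one that overlaps *Zfp987* (146124799 to 146124966) from 0.732 to 0.551, and the one at 147514164 to 147514331 from 0.463 to 0.295. The cluster on chromosome 13 (66792831 to 66792998) went the other way, from 0.184 to 0.291, and a sixth cluster on chromosome 4 (145450115 to 145450698) from 0.765 to 0.851. The authors kept uniquely mapped reads of a 129S x Cast hybrid on a reference genome of another strain, and the part of these repeats in the differences was not tested. The other 2 members with such shifts were a 48-nt repeat that overlaps *Sfr1* (0.373 and 0.394) and *Tk1*, the thymidine kinase gene (0.916 and 0.818), whose unannotated shorter intron can shift by 20 bases.

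In most members the longer intron was slightly less used after dTAG-13. Its PSI was lower in 484 of 838 members (57.8%), beside 51.4% of all 3448 clusters of 2 introns with a shared site, 49.3% at 1 to 30 nt and 49.0% at over 150 and up to 1000 nt. Among the 306 members that used the longer intron more, it was lower in 195 (63.7%), with a median difference of -0.00486, beside 925 of 1712 (54.0%) such clusters of 2 introns with a shared site and 53.7% of those at 1 to 30 nt. Among the 532 other members it was lower in 289 (54.3%), beside 848 of 1736 (48.8%) other clusters of 2 introns with a shared site. These groups were set by the Ctrl PSI, which also enters the difference. Such a choice by itself favours falls where the longer intron was used more. In the 38 members whose stretch is annotated in decay transcripts it was lower in 31 (81.6%), with a median difference of -0.0130. All 38 used the longer intron more, and among the other 268 members that did so it was lower in 164 (61.2%). Among members that used the longer intron more and had a readable frame, shares by stop codon lay closer together. It was lower in 86 of 126 with a stop in the stretch (68.3%) and in 72 of 116 without one (62.1%). The share for decay transcripts at other distances was not computed. Stretches in other noncoding transcripts (22 of 48 lower, 45.8%) and in 5′ untranslated regions (31 of 62) were nearly even. *Rpl12*, a protein of the large ribosomal subunit, had the largest negative difference of these 38 (0.685 and 0.602), and *Rps12* the largest positive one. Such medians are small beside the differences named above and have no replicate error.

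GGACT between the sites was found in 52 members (6.21%), read on the strand of the intron. Windows of the same length held it in 8.35% on the exon side and 5.49% on the intron side. At alternative 3′SS the shares were 5.33% between the sites, 8.40% on the exon side and 3.28% on the intron side, and at alternative 5′SS they were 7.43%, 8.29% and 8.57%. The wider DRACH consensus (A, G or T, then A or G, then AC, then A, C or T), of which GGACT is a part, was found between the sites of 585 members (69.8%). Members with GGACT had a median absolute difference of 0.0156 and 1 of 52 past 0.1, and members without it 0.0140 and 19 of 786. *Nudcd2* (0.181 in Ctrl and 0.111 in dTAG) and *Vegfb* (0.545 and 0.485) had the next largest differences after *Brip1*, and both were chosen after their values were seen.

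No member of the gene lists described next reached a difference of 0.1, where 2.39% of all members did. The largest list had 23 members, so the lists are too small to be set against that share. *Thoc2*, *Brip1*, *Cecr2* and *Hmga1*, which reached 0.1, are on none of these lists, so the lists do not cover all genes of these functions. The hnRNP proteins and other splicing regulators had 16 members, with a median absolute difference of 0.0145. *Hnrnpa3*, an abundant hnRNP, had the largest difference of them (0.176 in Ctrl and 0.103 in dTAG, 66 nt in frame). *Tial1*, which binds U-rich RNA, had 0.919 and 0.962. *Hnrnpk*, which binds C-rich RNA, used its sites 60 nt apart nearly equally, with 0.502 and 0.475. *Fubp1* had 3 members, of which the largest difference was that of 0.0615 and 0.0328.

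Of the SR proteins, their relatives and kinases, 3 genes had a member each. *Son*, a large scaffold of nuclear speckles, had 0.520 and 0.450 at 3′SS 53 nt apart, *Acin1* had 0.205 and 0.220, and *Clk1*, a kinase of SR proteins, had 0.996 and 0.9945. The core spliceosome had 15 members with differences from -0.0401 to 0.0213. *Sf3a2*, of the U2 particle, was at the lower end (0.180 and 0.140). *Prpf3* (0.989 and 0.965) and *Prpf4* (0.0168 and 0.0381) followed. The m6A writers, readers and erasers had only 1 member, *Mettl16*, which methylates U6 small nuclear RNA, with 0.973 and 0.964 at 5′SS 150 nt apart.

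Cleavage, polyadenylation and RNA decay genes had 23 members. *Zfc3h1*, which links nuclear RNA to the exosome, had the largest difference (0.891 and 0.837). It was followed by the poly(A)-binding protein gene *Pabpc4* (0.814 and 0.765), the kinase gene *Smg1* of nonsense-mediated decay (0.115 and 0.0701) and *Cstf2* (0.212 and 0.168). Chromatin and DNA methylation genes had 21 members with a median absolute difference of 0.0120. Their largest differences were those of the polycomb gene *Eed* (0.226 and 0.192), *Mbd3* (0.935 and 0.960), the demethylase gene *Kdm6a* (0.0710 and 0.0466) and *Chd2* (0.980 and 0.958).

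Ribosome, translation and ribosome biogenesis genes had 16 members on a list that does not hold *Rps12*. After *Rpl12*, the RNA polymerase I gene *Polr1b* had 2 members with opposite directions (0.0472 and 0.0925 at 5′SS, 0.0732 and 0.0407 at 3′SS), and *Rpl22l1* had 0.764 and 0.748. DNA repair and replication genes had 11 members, among them *Fancm* (0.796 and 0.736), *Pms1* (0.923 and 0.864), *Ercc5* (0.673 and 0.715) and *Msh3* (0.172 and 0.136). The pluripotency list had 4 members, with *Tet1* at 0.0291 and 0.0138 and, at another intron, at 0.834 and 0.841, *Tfcp2l1* at 0.0150 and 0.0121, and *Dppa5a* at 0.00240 and 0.00286. *Eomes* was the only member from the differentiation markers (0.222 and 0.263), and the feeder fibroblast markers had none.

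Of the 138 members with a PSI of the longer intron from 0.25 to 0.75 in untreated cells, 16 (11.6%) had a difference of 0.1 or more. At any use, 2.39% of all members and 3.77% of all 3448 clusters of 2 introns with a shared site did. The share of those 3448 at such middle use was not computed. Of the 138 members, 6 lie in the repeats described above. Without repeats, 11 of 132 members at such middle use had a difference of 0.1 or more. Members with a balanced choice were also picked for a difference under 0.02. The 6 of them nearest to equal use were *Tsta3* (0.497 in Ctrl and 0.480 in dTAG), *Zfp445* at 5′SS 36 nt apart (0.497 and 0.502), *Zfpl1* (0.489 and 0.481), *Atp13a1* (0.554 and 0.556), *Ankhd1* (0.444 and 0.432) and *Thada* (0.442 and 0.432). Of these, *Tsta3*, *Zfpl1* and *Thada* have the stretch in a 5′ untranslated region.

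At the edges of the distance range, 23 members had sites 31 nt apart, with PSI values of the longer intron from 0.0238 to 0.980 in untreated cells and differences from -0.0675 (*Aurkaip1*) to 0.0760 (*Rbl2*). Only *Mettl16* and *Ppdpf* (0.111 and 0.177) had sites 150 nt apart. Just outside, 19 clusters with sites 30 nt apart had differences from -0.0651 (*Ogt*) to 0.0561 (*Zfp141*), and 4 with sites 1 nt beyond the range, in *Pym1*, *Sdhaf2*, *Cenpt* and *Herc1*, had -0.0521 to 0.00955.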

How the data were processed

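Labelled RNA of 12 samples (6 Ctrl, 6 dTAG) was sequenced. The authors aligned reads to mm10 with STAR 2.5.2b, kept unique mappers, and formed clusters of split reads with LeafCutter. The deposited PSI values are fractions, fitted by the authors per intron and pooled over both clones and all replicates of a group. The tables also hold the authors' effect sizes, PSI differences, likelihood ratios and p-values, which were not used. Of 8706 clusters, 1443 had not been tested and were left out.

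Introns were found to begin 1 base after the deposited start and to end 1 base before the deposited end, and are given so, 1-based. Strand came from the GT-AG, GC-AG or AT-AC ends, which 20422 of 20437 introns had, and equalled that of the named gene in 825 of 825 members with a known one. Sequence was GRCm38 (RefSeq) and annotation GENCODE vM21, an earlier release than the authors'. Differences were computed from the deposited fractions. They have no replicate error, and a count past 0.1 is a description.

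Members past 0.1 (up to 12 in each direction), up to 4 members of each gene list, the 6 nearest to equal use with a difference under 0.02, members past 0.1 with GGACT, and those at the edges of the range are named, except an item that is not reported here. The members and lists were chosen with earlier results of these data known. The steps were tested on simulated data, in which 165 of 165 planted clusters were found with the right site type, stretch and direction. Alternatives were another PSI difference, log odds, subsets of clusters, the strand of the gene and DRACH. Python 3.11.15 was used with numpy 2.4.6, pandas 2.3.3, scipy 1.17.1, pysam 0.24.0, biopython 1.88 and matplotlib 3.10.9.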

Additional observations from a re-analysis of the deposited data

How the results depend on the processing

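The tables hold no value per sample, so leaving out a replicate could not be done, and depth cannot be judged. No paired analysis was possible because each group has 1 pooled column. Of 41 alternatives of the summary results, 12 moved the value. The count of members past 0.1 was 20. It was 110 at a difference of 0.05, 5 at 0.2 and 13 by log odds, each of 838 members. With clusters of exactly 1 gene name it was 13 of 814 (1.60%), a setting that also leaves out the unnamed repeat clusters. With both introns annotated it was 10 of 398, and this share of 2.51% was close to the 2.39% of all members. The count with the longer intron higher was 9, and it was 39 at 0.05, 1 at 0.2 and 5 by log odds. With both introns annotated, alternative 5′SS made up 48.2%, multiples of 3 were 43.5%, and the longer intron was used more in 45.7%. DRACH in place of GGACT gave 69.8%. Without repeats at the splice sites, a setting chosen after seeing the data, 14 members were past 0.1, 8 of them with the longer intron higher. On the log odds scale none of the 83 named members turned its direction. This outcome was fixed beforehand, because log odds rise with PSI, so it does not check the directions. *Dppa5a* had no change on that scale, because both of its PSI values lay below the floor set for log odds.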
